A study of Rattus norvegicus with 12 samples.

Results

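The genes described here are 43 rat genes of fibroblasts and the extracellular matrix: collagens, other matrix proteins, the enzymes that cross-link them, and 3 genes that mark fibroblasts. Their rows were found by symbol, and 34 of the 43 were among the 17419 genes of the deposited tables of counts and of TPM, a measure of transcript abundance corrected for gene length and library size. All 34 passed the filter on low counts that left 12535 genes for testing, with between 340 and 244768 counts per library. Col6a1, Col6a3, Col12a1, Col4a2, Lama2, Lamb1, Nid1, Hspg2 and Fbln2 were not analysed here.

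RNA was measured in primary cultures of ventricular cardiomyocytes from newborn (P0) Sprague-Dawley rats, collected 48 h after they were transfected with small interfering RNA (siRNA). Double knockdown cultures received 10 nM of an siRNA to Btg1 and 10 nM of an siRNA to Btg2, with no scrambled siRNA. Btg1 knockdown and Btg2 knockdown cultures received 10 nM of the 1 targeting siRNA with 10 nM of scramble, and scramble cultures received 20 nM of scramble. All 4 groups therefore carried the same total dose of siRNA, with 3 libraries per group, and no untransfected group was analysed here. Per the labels, fibroblasts were separated out before plating. Nothing in the labels tells whether the replicate libraries are separate cultures or animals, so a p-value here reflects how far these libraries spread, and part or all of that spread may be technical. Btg1 and Btg2 encode related proteins that restrain proliferation and bind the deadenylase complex that shortens poly(A) tails.

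The extracellular matrix of the heart is a scaffold laid down mainly by fibroblasts, which secrete fibrillar collagens that bear tension and small proteoglycans that decorate the fibrils. Elastic fibres add recoil, adhesive glycoproteins link the scaffold to cell-surface receptors, and lysyl oxidases cross-link collagen and elastin. Basement membranes, a separate sheet of type IV collagen and laminin around each cardiomyocyte, can be made by cardiomyocytes themselves. Matrix genes rise as fibroblasts become myofibroblasts in the injured or overloaded heart.

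Total counts ran from 24434925 to 46206581 per library, so that 1 count was worth 0.0213 to 0.0422 CPM (counts scaled to library size after TMM scaling, a correction for library composition). Btg1 had 50.9, 54.4 and 49.8 CPM in double knockdown cultures and 69.9, 61.8 and 66.8 CPM in Btg1 knockdown cultures, against 285, 281 and 284 CPM in scramble cultures. Btg2 had 69.6, 67.6 and 68.8 CPM in double knockdown cultures and 82.8, 85.3 and 87.4 CPM in Btg2 knockdown cultures, against 139.7, 132 and 144 CPM in cultures with scramble alone. Each targeted transcript was thus lower in every library that received its siRNA. Btg2 was also higher in Btg1 knockdown cultures, at 169.8, 179 and 177 CPM, than in scramble cultures (log2 change 0.34 ± 0.04, SE, edgeR adjusted p = 7.51e-07).

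Cardiomyocyte genes and matrix and fibroblast genes were both abundant in these cultures. In scramble cultures 14 cardiomyocyte markers summed to 40042 ± 445 TPM (SD, n = 3), and the 34 matrix and fibroblast genes summed to 16478 ± 250.04 TPM. Without the correction for gene length the sums were closer, at 38443 ± 454 CPM and 35771 ± 648 CPM. The fibroblast marker genes were detected although fibroblasts had been separated out: Pdgfra averaged 58.3 ± 1.94 TPM, Tcf21 51.7 ± 1.74 TPM and Ddr2 47.4 ± 0.208 TPM in scramble cultures. These are bulk samples, in which fewer cells of a type and less RNA per cell cannot be told apart. On the TPM scale Sparc was the most abundant of the 34 in scramble cultures at 3058 ± 60.4 TPM, followed by Col1a1 at 1963 ± 27.2, Dcn at 1512 ± 40.4 and Col3a1 at 1445 ± 43.4 TPM. Col3a1 and Dcn differed by less than the sum of their SDs. The least abundant were Thbs2 at 23.8 ± 0.929 TPM, Fbln5 at 16.2 ± 1.55 TPM and Vwa1 at 13.97 ± 1.498 TPM, the last 2 of which did not separate beyond their spread.

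Promoter windows, 250 bases before to 50 after the annotated start, were taken from RefSeq's promoter table for GRCr8, a rat assembly, and matched 22 of the 34 genes; 4 are shown because their genes carry the main patterns of the results. Col1a2, a fibrillar collagen chain, and Lum, a proteoglycan, were lower wherever the Btg1 siRNA was added. Lamc1, a laminin chain, was higher in all 3 knockdown groups, and Vwa1 moved in different directions with the 2 siRNAs. Capitals mark matches, on either strand, to 3 common promoter motifs. The CCAAT box was searched as its name spells it, and appears as ATTGG when reversed. The GC box was searched as GGGCGG, which appears as CCGCCC when reversed, and the TATA box was searched as the letters TATAAA.
Col1a2 (chr4:33518307-33518606, plus strand): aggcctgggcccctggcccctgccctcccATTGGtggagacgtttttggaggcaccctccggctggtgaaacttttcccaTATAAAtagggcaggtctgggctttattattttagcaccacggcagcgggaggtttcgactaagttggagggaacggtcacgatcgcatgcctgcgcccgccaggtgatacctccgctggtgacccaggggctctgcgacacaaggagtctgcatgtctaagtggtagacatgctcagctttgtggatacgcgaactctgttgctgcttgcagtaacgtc
Lum (chr7:34245456-34245755, plus strand): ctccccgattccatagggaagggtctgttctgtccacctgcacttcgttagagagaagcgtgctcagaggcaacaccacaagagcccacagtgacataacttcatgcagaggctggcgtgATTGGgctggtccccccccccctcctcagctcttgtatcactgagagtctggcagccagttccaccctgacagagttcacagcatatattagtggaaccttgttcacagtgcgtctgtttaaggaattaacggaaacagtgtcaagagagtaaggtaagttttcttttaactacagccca
Lamc1 (chr13:68051937-68052236, minus strand): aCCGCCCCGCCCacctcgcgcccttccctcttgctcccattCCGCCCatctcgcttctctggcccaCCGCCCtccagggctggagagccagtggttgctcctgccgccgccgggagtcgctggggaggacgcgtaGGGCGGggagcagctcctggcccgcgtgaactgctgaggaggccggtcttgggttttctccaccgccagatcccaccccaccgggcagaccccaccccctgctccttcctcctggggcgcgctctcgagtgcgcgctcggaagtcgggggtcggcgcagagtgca
Vwa1 (chr5:171664831-171665130, minus strand): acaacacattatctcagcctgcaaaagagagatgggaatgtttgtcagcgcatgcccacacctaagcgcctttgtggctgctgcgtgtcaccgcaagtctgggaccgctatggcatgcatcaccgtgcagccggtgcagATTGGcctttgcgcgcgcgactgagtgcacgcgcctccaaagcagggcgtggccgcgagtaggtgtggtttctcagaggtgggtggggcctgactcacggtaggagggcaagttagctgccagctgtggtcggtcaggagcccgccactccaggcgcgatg
The Col1a2 window held a reversed CCAAT box whose first base lay at -221 and a TATA box at -170 relative to the annotated start. The letters of Col1a2 from that start begin with atg, the letters of a start codon. The annotated start may therefore lie downstream of where transcription begins, and distances to that point were not tested. The Lamc1 window held 5 GC boxes and no TATA box. Among the 22 windows 9 (40.9%) held a CCAAT box, against 37.7% of 27457 rat promoters and 37.3% of the 9810 tested genes with a window. A GC box was in 10 windows (45.5%), against 34.9% of all promoters and 61.6% of those of tested genes, and TATAAA was in 4 (18.2%), against 14.3% and 7.18%. These matches describe letters in the windows only, and the motif search covered both strands and allowed overlaps.

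Across the 34 genes, most were lower in the double and the Btg1 knockdown, and similar numbers were higher and lower in the Btg2 knockdown. In the double knockdown 23 of the 34 fell and 2 rose against scramble (edgeR adjusted p under 0.05). That is 67.6% lower, against 19.5% of all tested genes called lower, 19.4% called higher and 38.9% called either way. In the Btg1 knockdown 19 fell and 3 rose, or 55.9% lower, against 17.8% of all tested genes called lower, 18.7% called higher and 36.5% called either way. In the Btg2 knockdown 11 fell and 9 rose, or 32.4% lower and 26.5% higher, against 13.6% and 16.4% of all tested genes, and 30.0% called either way. The median log2 change of the 34 was -0.25 in the double knockdown, -0.19 in the Btg1 knockdown and 0.03 in the Btg2 knockdown, where the medians over all tested genes were -0.0061, -0.0011 and -0.0017. These 3 comparisons share the scramble libraries. The 34 were chosen with earlier results of these data known, so the shares describe the set and do not test it. All tested genes also include genes with fewer counts than any of the 34. With scaling by library size alone the Btg2 knockdown median was -0.0039 and its calls were 9 higher and 13 lower, so its direction depends on the scaling. Under that scaling 41.3% of all called genes were higher in the Btg2 knockdown, against 54.5% with TMM.

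The median log2 deviation of the 34 genes from their scramble means was -0.16, -0.30 and -0.32 in the double knockdown libraries, -0.16, -0.31 and -0.10 in the Btg1 knockdown libraries, 0.02, 0.03 and -0.0029 in the Btg2 knockdown libraries, and 0.02, 0.01 and -0.03 in the scramble libraries. Every double and Btg1 knockdown library lay below every Btg2 knockdown and scramble library. Summed over the 34 genes, levels were 30575 to 33304 CPM in double knockdown and 30588 to 34818 CPM in Btg1 knockdown cultures, against 35176 to 36461 CPM in scramble cultures. Btg2 knockdown cultures had 36435 to 38419 CPM. The groups did not overlap, in any pair of libraries, for 25 genes in the double knockdown, 23 in the Btg1 knockdown and 26 in the Btg2 knockdown, against 46.8%, 50.1% and 45.7% of all tested genes.

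**Figure D1:**
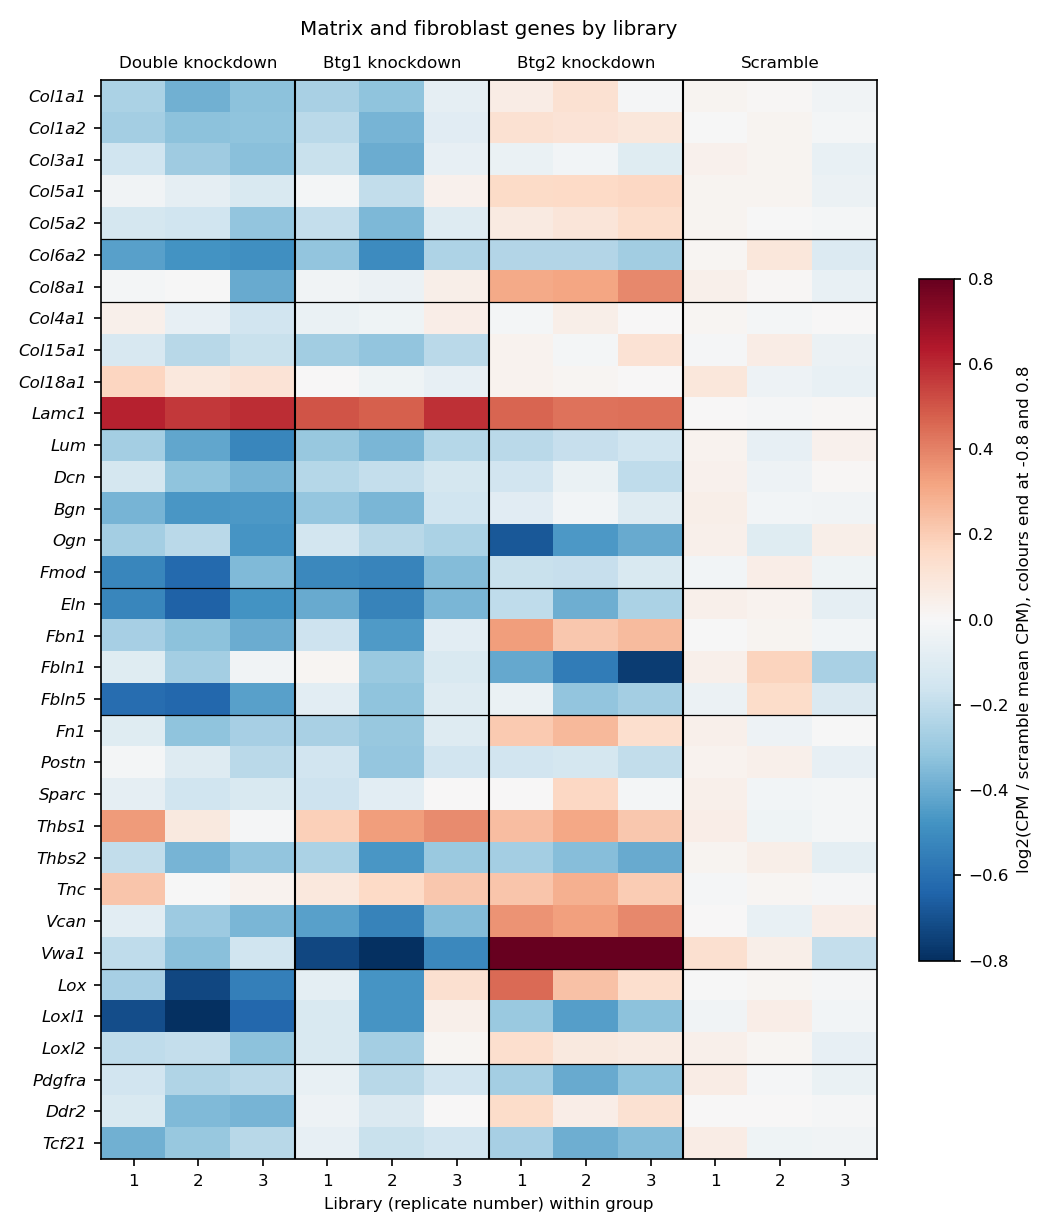
Log2 deviation of each of the 34 matrix and fibroblast genes (rows, grouped by role) from its mean over the scramble libraries, in each of 12 libraries (columns, from double knockdown at the left to scramble at the right). Colors end at the limits of the scale, and values beyond them, such as Vwa1 in the Btg2 knockdown, take the end color. Most rows are lower in the double and Btg1 knockdown columns, and Lamc1 is higher in all 9 knockdown columns.

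**Figure D2:**
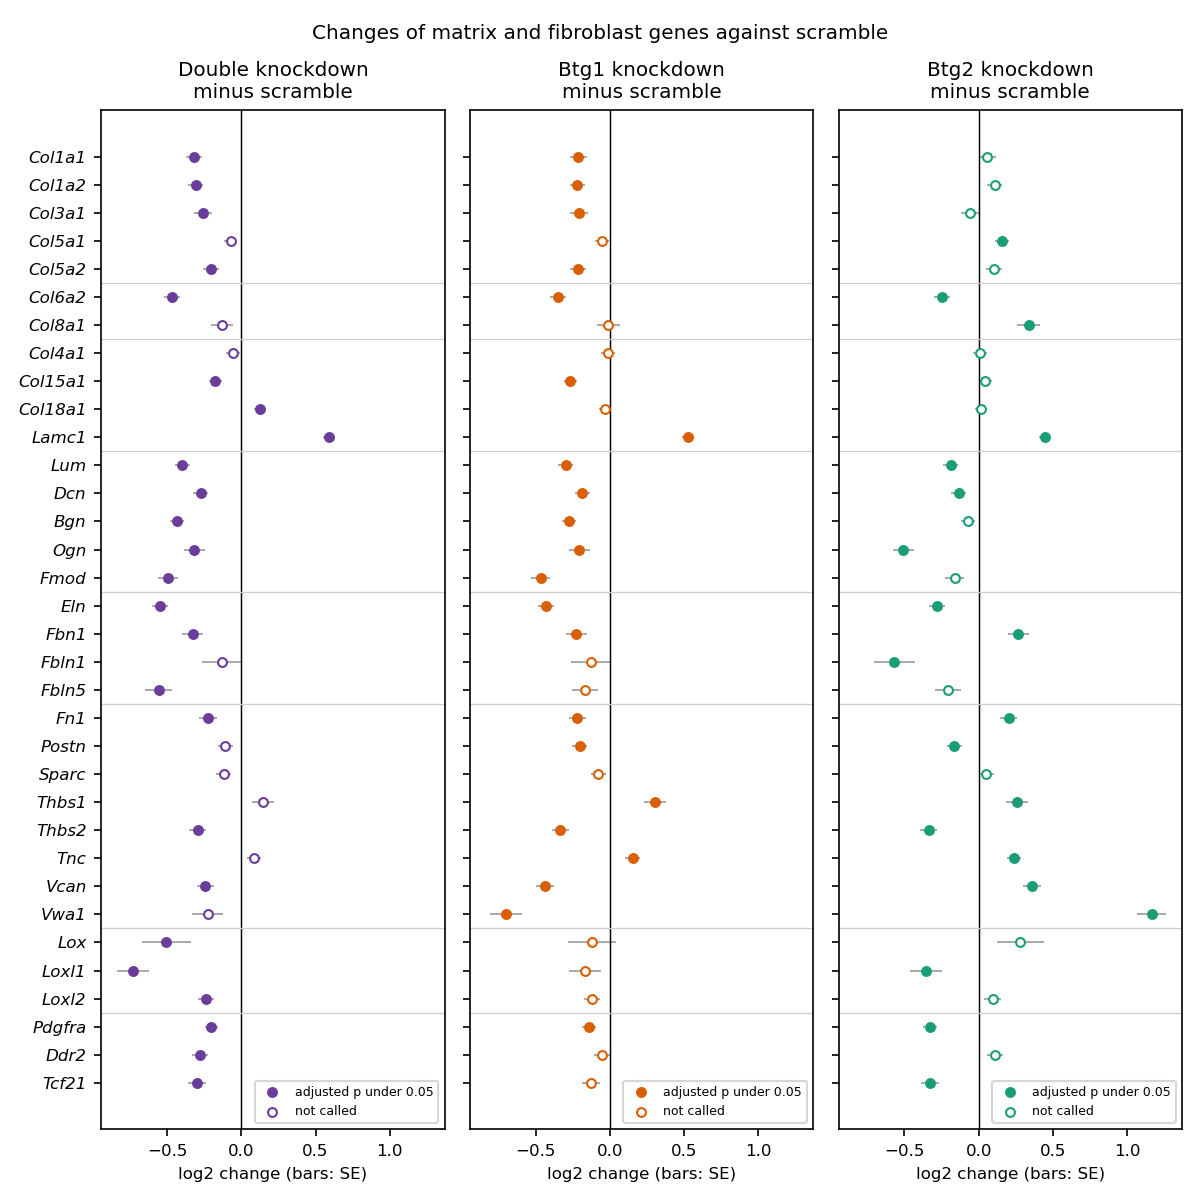
Log2 change of each of the 34 genes against scramble (x axis, with bars of 1 SE) in the double, Btg1 and Btg2 knockdown, filled where the edgeR adjusted p was under 0.05. Filled points lie mostly left of 0 in the first 2 panels (23 and 19 lower) and on both sides in the third (11 lower, 9 higher).

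Genes of the fibrillar collagens, which form the load-bearing fibres, mostly fell in the groups with the Btg1 siRNA. Col1a1 and Col1a2 encode the chains of type I collagen, Col3a1 that of type III, and Col5a1 and Col5a2 chains of type V, which regulates fibril diameter. Of the 5 genes, 4 fell in the double knockdown and 4 in the Btg1 knockdown, and 1 rose in the Btg2 knockdown. The falls are 80% in both groups, against 19.5% and 17.8% of all tested genes. The rise is 20%, near the 16.4% of all tested genes called higher in the Btg2 knockdown. Col1a1 had 4864, 4447 and 4619.6 CPM in double knockdown, 4839, 4629 and 5521 CPM in Btg1 knockdown and 6033, 6296 and 5768 CPM in Btg2 knockdown cultures, against 5875, 5836 and 5669.7 CPM in scramble cultures. All 6 libraries with the Btg1 siRNA lay below all 3 scramble libraries, and the Btg2 knockdown overlapped scramble. The log2 change of Col1a1 was -0.32 ± 0.06 (SE) in the double knockdown (edgeR adjusted p = 7.39e-05), -0.21 ± 0.06 in the Btg1 knockdown (adjusted p = 0.00403) and 0.06 ± 0.06 in the Btg2 knockdown (adjusted p = 0.465). The annotated span of Col1a1 in GRCr8 overlaps that of Sgca, a muscle gene at 114 CPM in both double knockdown and scramble cultures, and without a known strand setting the reads of the 2 cannot be told apart where they overlap.

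Col1a2 moved alongside Col1a1. It had 2751, 2637 and 2653 CPM in double knockdown, 2855, 2567 and 3111 CPM in Btg1 knockdown and 3610.0, 3580.4 and 3534 CPM in Btg2 knockdown cultures, against 3308, 3363 and 3277 CPM in scramble cultures. The 3 Btg2 knockdown libraries were above all 3 scramble libraries, though the test did not call the difference (log2 change 0.11 ± 0.05, adjusted p = 0.116). In the double and Btg1 knockdown the log2 changes were -0.31 ± 0.05 (adjusted p = 4.29e-05) and -0.22 ± 0.05 (adjusted p = 0.00147). Col3a1 had 3125, 2867 and 2768 CPM in double knockdown, 3081, 2654 and 3331 CPM in Btg1 knockdown and 3365, 3442 and 3269.5 CPM in Btg2 knockdown cultures, against 3574, 3549 and 3351 CPM in scramble cultures. It overlapped scramble in the Btg2 knockdown only. Its log2 changes were -0.26 ± 0.06 in the double (adjusted p = 0.00281) and -0.21 ± 0.06 in the Btg1 knockdown (adjusted p = 0.0135). The Btg1 knockdown call on Col3a1 was lost without Btg1 knockdown replicate 2 (adjusted p = 0.097) or scramble replicate 1 (adjusted p = 0.0551). Col5a1 did not pass in either (log2 changes -0.07 and -0.06) and was higher in the Btg2 knockdown, by 0.16 ± 0.05 (adjusted p = 0.0127, or 0.0695 without scramble replicate 3).

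Among the other collagens, the chains differed. Col6a2, a chain of the beaded-filament collagen VI that lies close to cells, had 649, 629 and 623 CPM in double knockdown, 704, 618 and 739 CPM in Btg1 knockdown and 746, 745 and 721 CPM in Btg2 knockdown cultures, against 885, 932 and 811 CPM in scramble cultures. Every knockdown library lay below every scramble library, and the log2 changes were -0.47 ± 0.05, -0.35 ± 0.05 and -0.25 ± 0.05 (adjusted p = 9.58e-07, 3.74e-05 and 0.00168). Col8a1, a short-chain collagen of vessels and injured tissue, had 57.0, 57.7 and 43.6 CPM in double knockdown, 56.6, 55.8 and 59.6 CPM in Btg1 knockdown and 71.1, 71.9 and 75.4 CPM in Btg2 knockdown cultures, against 59.5, 58.2 and 55.5 CPM in scramble cultures. It rose in the Btg2 knockdown, by 0.34 ± 0.08 (adjusted p = 0.00253), and passed in neither of the other 2.

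The 4 basement membrane genes that could be analysed, of 9 listed, did not fall as a set. Col4a2, Lama2, Lamb1, Nid1 and Hspg2 of this role were not analysed here. Lamc1, the laminin gamma 1 chain found in most laminins, had 2001, 1931 and 1966 CPM in double knockdown, 1854, 1822 and 1960.3 CPM in Btg1 knockdown and 1799.5, 1766 and 1771 CPM in Btg2 knockdown cultures, against 1306, 1296 and 1314 CPM in scramble cultures. All 9 knockdown libraries lay far above all 3 scramble libraries. The fold changes were 1.51, 1.44 and 1.36, or 0.59 ± 0.04, 0.53 ± 0.04 and 0.45 ± 0.04 on the log2 scale (adjusted p = 4.52e-11, 4.57e-10 and 1.17e-08). Col4a1, the core chain of type IV collagen, was called in none of the 3 (log2 changes -0.06, -0.01 and 0.01, each ± 0.05).

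Col15a1 and Col18a1 encode collagens that join basement membranes to the fibrils beneath. Col15a1 had 149, 139.7 and 144 CPM in double knockdown and 134, 131 and 140.4 CPM in Btg1 knockdown cultures, against 161, 169.5 and 158 CPM in scramble cultures. Its log2 changes were -0.18 ± 0.04 and -0.27 ± 0.04 (adjusted p = 0.00235 and 3.32e-05), and it was not called in the Btg2 knockdown. Col18a1 was 0.12 ± 0.04 higher in the double knockdown (adjusted p = 0.0214), with libraries that overlapped scramble. That call was lost without double knockdown replicate 1 (adjusted p = 0.104) or scramble replicates 2 (0.106) or 3 (0.125).

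The small leucine-rich proteoglycans, which coat collagen fibrils and set their spacing, were the one role whose members all fell in both groups with the Btg1 siRNA. All 5 fell in the double knockdown and all 5 in the Btg1 knockdown, and 3 fell in the Btg2 knockdown. Of all tested genes 19.5%, 17.8% and 13.6% were called lower in these groups. Lum, which encodes lumican, had 398, 360.5 and 335 CPM in double knockdown, 389.9, 373 and 411 CPM in Btg1 knockdown and 413, 422 and 430.2 CPM in Btg2 knockdown cultures, against 491, 459 and 492 CPM in scramble cultures. None of the 9 knockdown libraries reached the lowest scramble library. Log2 changes of Lum were -0.40 ± 0.05, -0.30 ± 0.05 and -0.19 ± 0.05 (adjusted p = 2.03e-06, 8.41e-05 and 0.00773). Bgn, which encodes biglycan, had 1256, 1178 and 1179.5 CPM in double knockdown, 1313, 1261 and 1457 CPM in Btg1 knockdown and 1528, 1599 and 1512 CPM in Btg2 knockdown cultures, against 1678, 1601 and 1597 CPM in scramble cultures. It fell by 0.43 ± 0.05 and 0.27 ± 0.05 on the log2 scale (adjusted p = 1.72e-07 and 7.92e-05) and was not called in the Btg2 knockdown (-0.07 ± 0.05, adjusted p = 0.276).

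Fmod, Dcn and Ogn completed that set. Fmod, which encodes fibromodulin, had 28.2, 26.2 and 31.7 CPM in double knockdown, 28.2, 28.0 and 31.7 CPM in Btg1 knockdown and 35.7, 35.5 and 37.1 CPM in Btg2 knockdown cultures, against 39.8, 41.9 and 39.5 CPM in scramble cultures. All 9 knockdown libraries were below the scramble libraries. The log2 changes were -0.49 ± 0.06 in the double and -0.47 ± 0.06 in the Btg1 knockdown (adjusted p = 1.91e-06 and 4.67e-06), and the Btg2 knockdown did not pass (-0.16 ± 0.06, adjusted p = 0.0619). Dcn, which encodes decorin, fell by 0.27 ± 0.05 in the double knockdown and 0.19 ± 0.05 in the Btg1 knockdown on the log2 scale (adjusted p = 0.000152 and 0.00588). Its Btg2 knockdown call (-0.14 ± 0.05, adjusted p = 0.0474) was lost without Btg2 knockdown replicates 1 (0.119) or 3 (0.198) or any scramble replicate (0.0555 to 0.152).

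Ogn, which encodes osteoglycin, was lowest in the Btg2 knockdown. It had 112, 117 and 98.0 CPM in double knockdown, 123, 116 and 114 CPM in Btg1 knockdown and 85.0, 98.9 and 103 CPM in Btg2 knockdown cultures, against 139.8, 127 and 140.4 CPM in scramble cultures. All 9 knockdown libraries lay below the scramble libraries, and the log2 changes were -0.32 ± 0.07, -0.21 ± 0.07 and -0.51 ± 0.07 (adjusted p = 0.00173, 0.0289 and 4.74e-05). The Btg1 knockdown call was lost without Btg1 knockdown replicates 2 (0.0803) or 3 (0.102) or scramble replicates 1 (0.0998) or 3 (0.0973). In GRCr8 the span of Ogn overlaps that of Cenpp.

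The elastic fibre genes fell in the double knockdown with 1 exception, where 19.5% of all tested genes were called lower. Eln encodes elastin itself, Fbn1 the fibrillin of the microfibril scaffold, and Fbln1 and Fbln5 fibulins that bind them. Eln had 165, 151 and 169.8 CPM in double knockdown, 179, 163 and 184 CPM in Btg1 knockdown and 206, 180.2 and 199 CPM in Btg2 knockdown cultures, against 244, 241 and 225 CPM in scramble cultures. Every knockdown library was below every scramble library, with log2 changes of -0.55 ± 0.05, -0.43 ± 0.05 and -0.28 ± 0.05 (adjusted p = 7.63e-08, 2.04e-06 and 0.000504). Fbln5, which guides elastic fibre assembly, had 12.8, 12.6 and 14.4 CPM in double knockdown, 18.4, 15.6 and 18.2 CPM in Btg1 knockdown and 18.8, 15.6 and 16.2 CPM in Btg2 knockdown cultures, against 18.9, 21.6 and 18.03 CPM in scramble cultures. It fell in the double knockdown to 68.0% of scramble (log2 change -0.56 ± 0.09, adjusted p = 3.41e-05) and passed in neither single knockdown.

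Fbn1 and Fbln1 responded to the Btg2 siRNA in different directions. Fbn1 had 401, 383 and 365 CPM in double knockdown, 429, 351 and 453 CPM in Btg1 knockdown and 606, 557 and 573 CPM in Btg2 knockdown cultures, against 480.0, 489 and 474 CPM in scramble cultures. It fell by 0.33 ± 0.07 on the log2 scale in the double knockdown (adjusted p = 0.00204) and rose by 0.27 ± 0.07 in the Btg2 knockdown (adjusted p = 0.0108). Its fall of 0.23 ± 0.07 in the Btg1 knockdown (adjusted p = 0.0223) was not called without scramble replicates 1 (0.0543) or 2 (0.0688). Fbln1 had 133, 118 and 139.8 CPM in double knockdown, 144, 116 and 131 CPM in Btg1 knockdown and 107, 96.9 and 84.3 CPM in Btg2 knockdown cultures, against 147, 162 and 119 CPM in scramble cultures. It fell in the Btg2 knockdown, where all 3 libraries were below the lowest scramble library (log2 change -0.57 ± 0.14, adjusted p = 0.0135, or 0.0503 in a fit of those 2 groups alone). The scramble libraries of Fbln1 spread more than those of most of these genes, at 143 ± 21.5 CPM (SD, n = 3).

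The adhesive and matricellular glycoproteins moved in both directions. Of 8 genes, 3 fell in the double knockdown, 5 fell and 2 rose in the Btg1 knockdown, and 2 fell and 5 rose in the Btg2 knockdown. The falls are 37.5%, 62.5% and 25%, against 19.5%, 17.8% and 13.6% of all tested genes. The rises are 0%, 25% and 62.5%, against 19.4%, 18.7% and 16.4%. Vwa1, which encodes a von Willebrand factor A domain protein of the matrix, showed the widest differences. It had 14.4, 13.1 and 14.8 CPM in double knockdown, 9.97, 9.03 and 11.6 CPM in Btg1 knockdown and 42.5, 33.9 and 34.7 CPM in Btg2 knockdown cultures, against 18.1, 17.1 and 14.5 CPM in scramble cultures. The lowest Btg2 knockdown library stood well above the highest library of any other group, and the Btg1 knockdown libraries were the 3 lowest of the 12. Its fold changes were 2.25 in the Btg2 knockdown (log2 change 1.17 ± 0.10, adjusted p = 1.86e-08) and 0.615 in the Btg1 knockdown (-0.70 ± 0.11, adjusted p = 2.11e-05). The double knockdown did not pass against scramble (-0.23 ± 0.10, adjusted p = 0.0857).

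Vcan, which encodes the large proteoglycan versican, and Fn1, which encodes fibronectin, also had calls in both directions. Vcan had 418, 363 and 344 CPM in double knockdown, 328, 306 and 349 CPM in Btg1 knockdown and 569.6, 556 and 579 CPM in Btg2 knockdown cultures, against 445, 425 and 459 CPM in scramble cultures. It fell by 0.24 ± 0.06 and 0.44 ± 0.06 on the log2 scale in the double and Btg1 knockdown (adjusted p = 0.00318 and 1.15e-05) and rose by 0.36 ± 0.06 in the Btg2 knockdown (adjusted p = 0.000152). Fn1 had 5035, 4291 and 4476 CPM in double knockdown, 4487, 4353 and 4996 CPM in Btg1 knockdown and 6225, 6424 and 5900.4 CPM in Btg2 knockdown cultures, against 5537, 5233 and 5354 CPM in scramble cultures. Its log2 changes were -0.22 ± 0.06, -0.22 ± 0.06 and 0.20 ± 0.06 (adjusted p = 0.00368, 0.00447 and 0.0108). The rise of Fn1 was not called without Btg2 knockdown replicate 2 (0.0531) or scramble replicate 2 (0.0542).

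The thrombospondins, which modulate growth factors and cell adhesion, moved apart from each other. Thbs1 had 922, 766 and 723 CPM in double knockdown, 830.2, 918 and 946 CPM in Btg1 knockdown and 864, 900.2 and 842 CPM in Btg2 knockdown cultures, against 753, 709 and 718 CPM in scramble cultures. It rose in the Btg1 and Btg2 knockdown, by 0.31 ± 0.07 and 0.26 ± 0.07 on the log2 scale (adjusted p = 0.00461 and 0.0165), and did not pass in the double knockdown, where 1 library stood above the other 2 (0.15 ± 0.07, adjusted p = 0.138). The Btg2 knockdown call was lost without Btg2 knockdown replicate 2 (0.0673) or scramble replicate 2 (0.0611). Thbs2 had 60.3, 53.5 and 55.6 CPM in double knockdown, 58.0, 50.1 and 56.4 CPM in Btg1 knockdown and 57.3, 54.7 and 52.4 CPM in Btg2 knockdown cultures, against 70.3, 71.6 and 65.7 CPM in scramble cultures. All 9 knockdown libraries were below all 3 scramble libraries, at 81.6%, 79.3% and 79.2% of scramble (adjusted p = 0.000309, 8.08e-05 and 0.000135).

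Tnc, Postn and Sparc encode matricellular proteins of tissue remodeling, tenascin C, periostin and osteonectin. Tnc had 156, 133 and 136 CPM in double knockdown, 142, 149 and 155 CPM in Btg1 knockdown and 156, 163 and 154 CPM in Btg2 knockdown cultures, against 132, 135 and 133 CPM in scramble cultures. Its single knockdown libraries lay above the scramble libraries, and the double knockdown overlapped them. Tnc was 0.24 ± 0.05 higher on the log2 scale in the Btg2 knockdown (adjusted p = 0.000897) and 0.15 ± 0.05 higher in the Btg1 knockdown (adjusted p = 0.0191). The Btg1 knockdown call was lost without Btg1 knockdown replicates 2 (0.0517) or 3 (0.0998) or scramble replicates 1 (0.066) or 3 (0.0551). Postn had 1041, 979.9 and 905 CPM in double knockdown, 945, 849 and 946 CPM in Btg1 knockdown and 945, 956 and 917 CPM in Btg2 knockdown cultures, against 1070.1, 1080.4 and 1004 CPM in scramble cultures. Postn, a marker of activated fibroblasts, fell in the Btg1 knockdown by 0.20 ± 0.05 on the log2 scale (adjusted p = 0.00256) and overlapped scramble in the double knockdown (-0.11 ± 0.05, adjusted p = 0.0906). Its Btg2 knockdown call (-0.16 ± 0.05, adjusted p = 0.0163) was lost without Btg2 knockdown replicate 3 (0.0689) or scramble replicates 1 (0.0631) or 2 (0.0776). Sparc, the most abundant of the genes on the TPM scale, passed in none of the 3, with log2 changes of -0.12, -0.08 and 0.05, each ± 0.05.

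All 3 lysyl oxidases fell in the double knockdown, where 19.5% of all tested genes were called lower. In the Btg1 knockdown Loxl1, Lox and Loxl2 did not pass, with log2 changes of -0.17 ± 0.11, -0.12 ± 0.16 and -0.12 ± 0.06 (adjusted p = 0.26, 0.612 and 0.0984). Loxl1, which acts mainly on elastin, had 74.2, 67.4 and 78.5 CPM in double knockdown, 112, 87.6 and 125 CPM in Btg1 knockdown and 99.0, 89.4 and 96.7 CPM in Btg2 knockdown cultures, against 119, 126 and 119.6 CPM in scramble cultures. The double knockdown libraries lay below every other library, at 60.4% of scramble (log2 change -0.73 ± 0.11, adjusted p = 0.000359). The Btg2 knockdown call on Loxl1 (-0.35 ± 0.11, adjusted p = 0.0327) was lost on leaving out any 1 of the 6 libraries (0.0595 to 0.105). Lox, the founding member, had 44.6, 32.3 and 36.7 CPM in double knockdown, 50.8, 38.7 and 58.6 CPM in Btg1 knockdown and 73.6, 63.1 and 58.8 CPM in Btg2 knockdown cultures, against 53.5, 54.2 and 53.3 CPM in scramble cultures. Its double knockdown call (-0.50 ± 0.16, adjusted p = 0.0375) was lost without double knockdown replicates 2 (0.119) or 3 (0.1) or any scramble replicate (0.0796 to 0.0912). Loxl2 had 94.1, 94.7 and 86.2 CPM in double knockdown cultures, against 111, 109 and 104 CPM in scramble cultures, a log2 change of -0.24 ± 0.06 (adjusted p = 0.00193).

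The 3 fibroblast genes that are not matrix proteins also fell in the double knockdown, against 19.5% of all tested genes. Pdgfra, the receptor for platelet-derived growth factor and a standard fibroblast marker, had 173, 163 and 166 CPM in double knockdown, 184, 165 and 173 CPM in Btg1 knockdown and 159.6, 146 and 154 CPM in Btg2 knockdown cultures, against 200.2, 191 and 186 CPM in scramble cultures. All knockdown libraries were below all scramble libraries, with log2 changes of -0.20 ± 0.05, -0.14 ± 0.05 and -0.33 ± 0.05 (adjusted p = 0.00104, 0.0158 and 9.77e-06). The Btg1 knockdown call was lost without Btg1 knockdown replicate 2 (0.112) or scramble replicate 1 (0.0997). Tcf21, a transcription factor of cardiac fibroblasts and their epicardial precursors, had 24.6, 25.9 and 27.4 CPM in double knockdown, 30.6, 28.3 and 28.8 CPM in Btg1 knockdown and 26.6, 24.4 and 25.2 CPM in Btg2 knockdown cultures, against 33.4, 31.3 and 31.3 CPM in scramble cultures. No knockdown group overlapped scramble, and it passed in the double knockdown (-0.30 ± 0.06, adjusted p = 0.000329) and the Btg2 knockdown (-0.33 ± 0.06, adjusted p = 0.000241). Ddr2, a receptor for fibrillar collagen, had 77.4, 65.9 and 65.2 CPM in double knockdown, 82.0, 77.7 and 84.4 CPM in Btg1 knockdown and 93.3, 87.6 and 91.8 CPM in Btg2 knockdown cultures, against 84.3, 84.7 and 83.9 CPM in scramble cultures. It fell by 0.28 ± 0.05 on the log2 scale in the double knockdown (adjusted p = 0.000278) and passed in neither single knockdown.

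**Figure D3:**
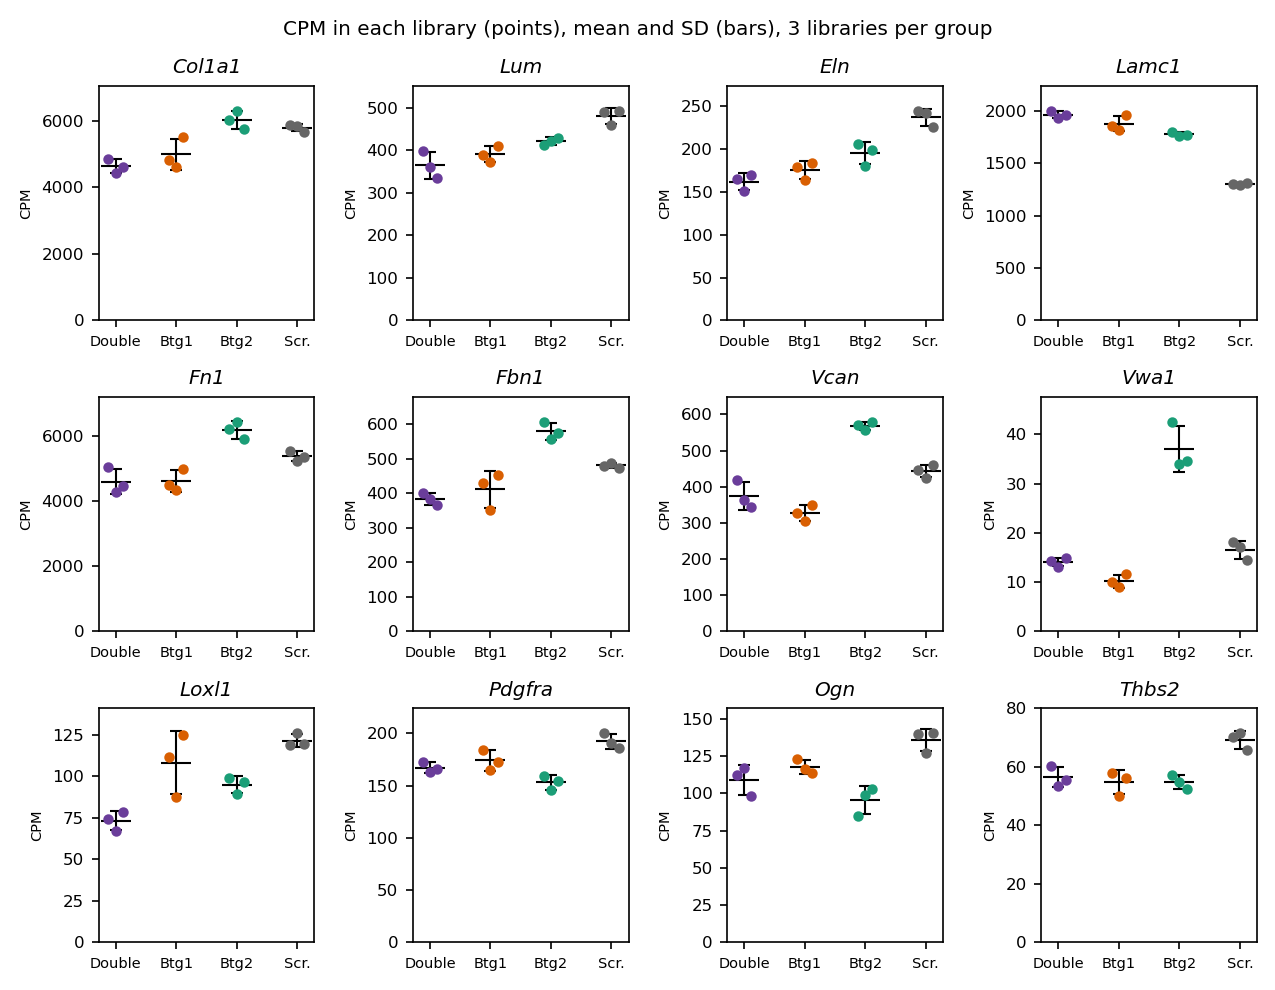
CPM of 12 of the genes in each library (points), with group mean (line) and SD (bars, n = 3), in the order double, Btg1 and Btg2 knockdown and scramble; each y axis starts at 0. Eln is lower and Lamc1 higher in every knockdown library than in scramble, and Vwa1, Vcan, Fbn1 and Fn1 are highest in the Btg2 knockdown.

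Each siRNA was used in 2 settings with no library in common, alone and on top of the other knockdown, which allowed its changes to be set side by side. The Btg1 siRNA added to the Btg2 knockdown (double against Btg2 knockdown) lowered 24 of the 34 genes and raised 4, against 17.0% and 15.2% of all tested genes (32.2% either way), with a median log2 change of -0.23. Libraries of the 2 groups did not overlap for 26 of the 34, against 42.1% of all tested genes. The 5 fibrillar collagens and the 3 lysyl oxidases were called lower there with all libraries in the fit. The call on Col3a1 was lost without Btg2 knockdown replicate 2 or double knockdown replicates 2 or 3 (adjusted p = 0.0671 to 0.0827), and that on Loxl1 without Btg2 knockdown replicates 1 or 3 or double knockdown replicates 1 or 2 (0.0547 to 0.0992) or with no filter (0.0579). Of the 34, 15 were lower in both settings of the Btg1 siRNA: Bgn, Col15a1, Col1a1, Col1a2, Col3a1, Col5a2, Col6a2, Dcn, Eln, Fbn1, Fmod, Fn1, Lum, Vcan and Vwa1. Those 15 are 78.9% of the 19 lower alone, 62.5% of the 24 lower on the Btg2 knockdown and 44.1% of the 34. Over all tested genes the corresponding shares were 50.2%, 52.5% and 8.92%. Besides Col3a1, the call on Dcn on the Btg2 knockdown (adjusted p = 0.0393) was lost without Btg2 knockdown replicates 1 or 2 or double knockdown replicates 2 or 3 (0.0646 to 0.197) and with library size alone, TPM or only those groups (0.0787 to 0.0858). The count of 15 was 13 to 17 over all left-out libraries. Lamc1 was the 1 gene higher in both, and Ogn, Pdgfra and Tnc were called in different directions. Of all 12535 tested genes, 979 were higher in both and 265 were called in different directions. On the Btg2 knockdown the call on Ogn was lost without double knockdown replicates 1 or 2 or Btg2 knockdown replicates 1 or 2, that on Pdgfra without double knockdown replicate 1 or Btg2 knockdown replicates 2 or 3, and that on Tnc without double knockdown replicates 2 or 3 or Btg2 knockdown replicate 2 (adjusted p = 0.0629 to 0.211). All 3 calls were also lost with TPM or only those groups (0.0515 to 0.0803). Further, that on Ogn was lost with no filter (0.0720) or a block for replicate number (0.0924), and that on Tnc with library size alone (0.0579). The counts of genes raised on the Btg2 knockdown were 1 without double knockdown replicate 1 or Btg2 knockdown replicate 2, and 2 without Btg2 knockdown replicate 3, against 4 with all libraries.

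With the Btg1 siRNA on the Btg2 knockdown, Vwa1 stood at 38.0% of its Btg2 knockdown level in the double knockdown (log2 change -1.39 ± 0.10, adjusted p = 8.7e-10), and Vcan and Fbn1 at 66.0% and 66.2% (log2 changes -0.60 ± 0.06 and -0.60 ± 0.07, adjusted p = 3.18e-07 and 1.53e-05). Fn1 fell by 0.43 ± 0.06 and Col1a2 by 0.42 ± 0.05 on the log2 scale (adjusted p = 5.35e-06 and 1.2e-06). Across the 34 genes the log2 changes of the 2 settings had a Pearson r of 0.48 and a Spearman rho of 0.35, or an r of 0.30 without Vwa1, and 25 of 34 had the same sign. Over all 12535 genes the r was 0.45 and the rho 0.41, and 8176 had the same sign. Genes are not independent replicates, and these correlations are descriptions only.

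The Btg2 siRNA added to the Btg1 knockdown (double against Btg1 knockdown) moved few of the genes. It lowered 5 and raised 3 of the 34, or 14.7% and 8.82%, against 11.9% and 10.3% of all tested genes (22.3% either way), shares near the background. Libraries did not overlap for 7 of the 34, against 34.6% of all tested genes. The 5 were Bgn, Ddr2, Fbln5, Loxl1 and Tcf21, and the 3 were Col18a1, Vcan and Vwa1. Without Btg1 knockdown replicate 2, 11 were lower, and without double knockdown replicates 1, 2 or Btg1 knockdown replicate 3 the counts were 8, 3 and 3. Loxl1 fell by 0.56 ± 0.11 and Fbln5 by 0.39 ± 0.09 on the log2 scale (adjusted p = 0.00432 and 0.00318), and Vwa1 rose by 0.47 ± 0.11 (adjusted p = 0.00265). Across the 34 genes, 2 (Loxl1 and Tcf21) were lower and 2 (Vcan and Vwa1) higher in both settings of the Btg2 siRNA, with none called in different directions, an r of 0.47, a rho of 0.19 and an r of 0.19 without Vwa1. The same sign was seen in 19 of the 34. Over all 12535 genes, 538 were lower and 563 higher in both settings, and 286 were called in different directions. Of those 12535, 7450 had the same sign, with an r of 0.21 and a rho of 0.24. The genes lower in both were 5.88% of the 34, near the 4.29% of all tested genes. On the Btg1 knockdown the call on Tcf21 (adjusted p = 0.0417) was lost without Btg1 knockdown replicates 1 or 3 or double knockdown replicates 1 or 2 (0.0721 to 0.181) and in the fits with the replicate block, library size alone, no filter, TPM or only those groups (0.0523 to 0.0835). The call on Vcan (adjusted p = 0.0237) was lost without Btg1 knockdown replicates 1 or 2 or double knockdown replicate 1 (0.066 to 0.133) and with TPM or only those groups (0.058 to 0.0606). That on Bgn (adjusted p = 0.0199) was lost without Btg1 knockdown replicate 3 or double knockdown replicates 2 or 3 (0.0524 to 0.160) and with only those groups (0.0545).

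**Figure D4:**
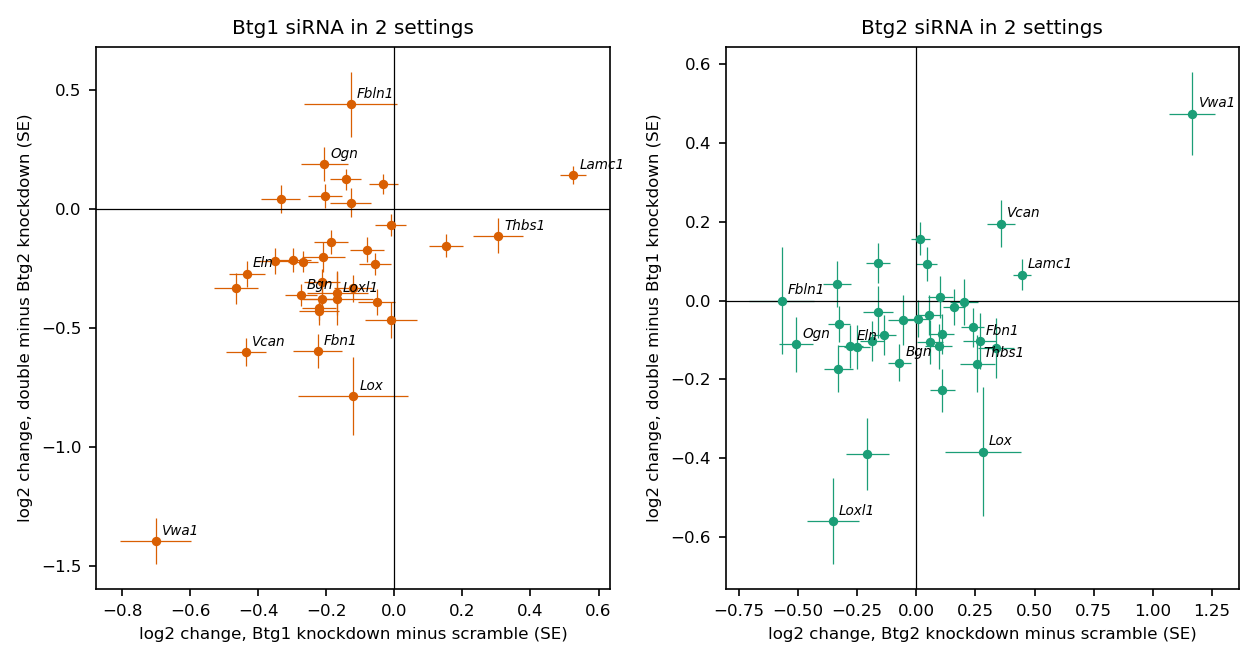
Log2 change of each gene when an siRNA was used on top of the other knockdown (y axis) against its change when used alone (x axis), for the Btg1 siRNA and the Btg2 siRNA; the 2 axes of a panel share no library. Most points of the Btg1 siRNA panel lie in the lower left, and Vwa1 lies far from the rest in both panels.

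Against scramble, 7 of the 34 genes (20.6%) were lower in all 3 knockdown groups, Col6a2, Dcn, Eln, Lum, Ogn, Pdgfra and Thbs2, where 3.885% of all tested genes were. That count was 4 without scramble replicate 1, and 4 with limma on log2(TPM + 1). Lamc1 was the 1 gene (2.94%) higher in all 3, where 5.82% of all tested genes were. Col4a1 and Sparc were called in none. The 3 comparisons share the scramble libraries.

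The combined effect of the 2 siRNAs departed from the sum of the single effects on the log2 scale for 11 of the 34 genes, 7 below the sum and 4 above it. That is 20.6% below and 11.8% above, against 10.1% and 4.99% of all tested genes (15.1% either way). Below the sum were Vwa1 (-0.69 ± 0.14), Col8a1 (-0.46 ± 0.11), Thbs1 (-0.42 ± 0.10), Lamc1 (-0.38 ± 0.05), Fbn1 (-0.37 ± 0.10), Ddr2 (-0.34 ± 0.08) and Tnc (-0.31 ± 0.07). Lamc1 rose by 0.14 ± 0.04 when the Btg1 siRNA was added to the Btg2 knockdown (adjusted p = 0.00573), and the change with the Btg2 siRNA on the Btg1 knockdown did not pass (0.07 ± 0.04, adjusted p = 0.241). Above it were Ogn (0.40 ± 0.10), Thbs2 (0.38 ± 0.08), Pdgfra (0.27 ± 0.06) and Postn (0.26 ± 0.07), genes that fell in both single knockdowns and whose double knockdown change was smaller than the greater of the single ones. The count below the sum was 12 without Btg1 knockdown replicate 2. The departure of Fbn1 (adjusted p = 0.0236) was lost on leaving out any of 6 single libraries (0.0501 to 0.0765). It was also lost with no filter on low counts (0.0691) and with limma on TPM (0.0517). That of Thbs1 was lost with no filter on low counts (0.0515).

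The enzymes and carriers that fold, modify and export collagen were more often lower than higher. Of 23 such genes tested, 14 fell and 2 rose in the double knockdown (median log2 change -0.23), 11 fell and 1 rose in the Btg1 knockdown (-0.13), and 9 fell and 1 rose in the Btg2 knockdown (-0.12). The falls are 60.9%, 47.8% and 39.1% of the list, against 19.5%, 17.8% and 13.6% of all tested genes. Sec23a, a coat protein of the vesicles that export collagen, had 61.8, 58.5 and 56.8 CPM in double knockdown cultures, against 83.7, 84.2 and 86.0 CPM in scramble cultures (log2 change -0.52 ± 0.05, adjusted p = 6.66e-09). Ppib, a prolyl isomerase that helps collagen fold, fell by 0.25 ± 0.04, 0.17 ± 0.04 and 0.17 ± 0.04 in the double, Btg1 and Btg2 knockdown on the log2 scale (adjusted p = 7.45e-06, 0.000667 and 0.000919). The counts of falls were 7 in the Btg1 knockdown without scramble replicate 1, and in the Btg2 knockdown 4 without Btg2 knockdown replicate 3, 5 without scramble replicate 1 and 4 without scramble replicate 2.

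Other matrix genes and matrix receptors did not move as one. Of 67 further matrix genes tested, 26 fell and 8 rose in the double knockdown, 22 fell and 14 rose in the Btg1 knockdown, and 16 fell and 16 rose in the Btg2 knockdown (9 fell without Btg2 knockdown replicate 3). The falls are 38.8%, 32.8% and 23.9%, against 19.5%, 17.8% and 13.6% of all tested genes. The rises are 11.9%, 20.9% and 23.9%, against 19.4%, 18.7% and 16.4%. Ltbp2, which binds microfibrils, had 91.3, 78.2 and 82.6 CPM in double knockdown and 86.0, 80.6 and 93.9 CPM in Btg1 knockdown cultures, against 142, 142 and 137 CPM in scramble cultures (log2 changes -0.74 ± 0.05 and -0.69 ± 0.05, adjusted p = 4.01e-10 and 1.44e-09). Tgm2, a transglutaminase that cross-links matrix, rose in the double knockdown to 145% of scramble (0.54 ± 0.04, adjusted p = 2.8e-10). Among 19 matrix receptors, 8 rose and 3 fell in the double knockdown (5 rose without scramble replicate 2), 8 rose and 4 fell in the Btg1 knockdown, and 9 rose and 1 fell in the Btg2 knockdown. The rises are 42.1%, 42.1% and 47.4% of the receptors, against 19.4%, 18.7% and 16.4% of all tested genes. The falls are 15.8%, 21.1% and 5.26% of the receptors, against 19.5%, 17.8% and 13.6%. Itga6, a laminin-binding integrin subunit, had 96.1, 101 and 95.6 CPM in double knockdown, 139, 136 and 153 CPM in Btg1 knockdown and 85.3, 76.2 and 85.7 CPM in Btg2 knockdown cultures, against 57.9, 64.0 and 63.5 CPM in scramble cultures. Cd44, a hyaluronan receptor, had 128, 111 and 101 CPM in double knockdown cultures, against 159, 152 and 154 CPM in scramble cultures (-0.46 ± 0.06, adjusted p = 2.36e-06).

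Markers of other cell types also moved with the groups, and their part in the changes of the matrix genes was not tested. Other fibroblast markers fell for 13 of 22 tested and rose for 1 in the double knockdown, with 6 and 1 in the Btg1 knockdown and 7 and 2 in the Btg2 knockdown. The falls are 59.1%, 27.3% and 31.8%, against 19.5%, 17.8% and 13.6% of all tested genes. The rises are 4.55%, 4.55% and 9.09%, against 19.4%, 18.7% and 16.4%. The summed level of these markers was 2991 to 3050.4 CPM in double knockdown, 2887 to 3274 CPM in Btg1 knockdown and 3403 to 3516 CPM in Btg2 knockdown cultures, against 3188 to 3325 CPM in scramble cultures. Dpt, a matrix protein of fibroblasts, stood at 61.9%, 69.2% and 59.4% of scramble in the double, Btg1 and Btg2 knockdown (adjusted p = 3.41e-08, 1.67e-06 and 3.12e-08), and Gsn rose to 152% of scramble in the double knockdown (adjusted p = 5.38e-12).

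Among 14 cardiomyocyte markers, 3 rose and 3 fell in the double knockdown (21.4% each way, near the 19.4% and 19.5% of all tested genes), and the summed level was 40340.2 to 40826 CPM in double knockdown, 37320.5 to 41792 CPM in Btg1 knockdown and 41874 to 46179 CPM in Btg2 knockdown cultures, against 38083 to 38953 CPM in scramble cultures. Of these markers 5 rose and 5 fell in the Btg1 knockdown, and 6 rose and 0 fell in the Btg2 knockdown. That is 35.7% each way in the Btg1 knockdown, against 18.7% and 17.8% of all tested genes. In the Btg2 knockdown it is 42.9% higher, against 16.4%. Without Btg1 knockdown replicate 1 the Btg1 knockdown counts were 8 and 2, without any 1 scramble replicate 3 fell there, and 3 rose in the Btg2 knockdown without Btg2 knockdown replicate 2 or scramble replicates 1 or 2. Endothelial markers summed to 220.3 to 238 CPM in double knockdown, 257 to 280.2 CPM in Btg1 knockdown and 258 to 268 CPM in Btg2 knockdown cultures, against 287 to 299 CPM in scramble cultures, and 9, 2 and 4 of 12 fell, while 1 rose in each of the double and Btg1 knockdown. The falls are 75.0%, 16.7% and 33.3%, against 19.5%, 17.8% and 13.6% of all tested genes, so the Btg1 knockdown share was at the background. The Btg1 knockdown count was 1 without Btg1 knockdown replicate 2 or scramble replicates 2 or 3, and the Btg2 knockdown count was 1 or 2 without Btg2 knockdown replicates 1 or 3 or scramble replicates 1 or 2. Kdr, an endothelial growth factor receptor, had 21.1, 23.6 and 19.0 CPM in double knockdown cultures, against 41.2, 41.9 and 41.3 CPM in scramble cultures.

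Macrophage markers summed to 44.5 to 46.7 CPM in double knockdown, 41.9 to 49.0 CPM in Btg1 knockdown and 39.1 to 40.8 CPM in Btg2 knockdown cultures, against 51.4 to 60.7 CPM in scramble cultures, and 3, 3 and 7 of 11 fell. The falls are 27.3%, 27.3% and 63.6%, against 19.5%, 17.8% and 13.6% of all tested genes, and 0 rose in each group. Smooth muscle and pericyte markers summed to 2198 to 2368 CPM in double knockdown, 2337 to 2936 CPM in Btg1 knockdown and 2533 to 2880.2 CPM in Btg2 knockdown cultures, against 2205 to 2341 CPM in scramble cultures, with 3 of 10 higher and 3 lower in the double knockdown. Those are 30% each way in the double knockdown, against 19.4% and 19.5% of all tested genes. In the Btg1 knockdown 2 rose and 1 fell, or 20% and 10%, against 18.7% and 17.8% of all tested genes. In the Btg2 knockdown 2 rose and 0 fell, or 20% and 0%, against 16.4% and 13.6%. Cnn1, a smooth muscle calponin, rose to 228% of scramble in the double knockdown (adjusted p = 3.74e-09). Epicardial markers summed to 95.3 to 99.6 CPM in double knockdown cultures, against 93.8 to 97.5 CPM in scramble cultures, with 1 of 6 higher and 1 lower (16.7% each way, against 19.4% and 19.5% of all tested genes). Schwann cell markers summed to 140.0 to 147 CPM in double knockdown cultures, against 106 to 122 CPM in scramble cultures, with 1 of 4 tested higher and 1 lower (25% each way, against 19.4% and 19.5% of all tested genes). Of the 4 tested, 3 had negative log2 changes, down to -0.73, and 1 a positive one of 0.37. The higher sum therefore does not stand for most of them. Erythroid markers summed to under 3 CPM in every library. The Schwann cell gene Sox10, the epicardial gene Bnc1 and the erythroid genes Hba-a1 and Alas2 were all below 0.5 CPM.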

How the data were processed

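Per the labels' protocols, total RNA was amplified (Ovation RNA-Seq v2), made into Nextera XT libraries and read in pairs on a HiSeq 2500. FastQC, Trim Galore, cutadapt, STAR, featureCounts and the build rn5 are listed in the submitters' processing notes without versions. How strand was treated, the annotation and the options of counting were not given in the sources used here. Counts per gene symbol, not normalized, and TPM were deposited by the authors. Amplified reads without molecular identifiers are not independent molecules.

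The counts of all 12 libraries entered one edgeR 4.0.16 quasi-likelihood fit (limma 3.58.1, R 4.3.3) with robust dispersions, TMM factors of 0.971 to 1.02, a mean for each group and 8 residual degrees of freedom. The filter filterByExpr removed 4884 genes. Spread between the libraries of a group, beyond that of counting, had a common coefficient of variation of 4.97%. Benjamini-Hochberg adjustment ran over all tested genes within each of 6 comparisons, and calls were made at 0.05. The SE was the absolute log2 change divided by the square root of F. The step was tested on simulated data. No libraries of a group were identical: chi-square per degree of freedom was 4.17 to 27.1 between replicates. Deposited TPM served to rank genes by level and, as log2(TPM + 1) and log2(TPM + 0.1), in limma alternatives. Sequences are from RefSeq (GRCr8).

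Values in every library were given for members among the 8 largest called changes against scramble in each group that averaged at least 1 CPM, for up to 5 with the smallest p for departure from additivity, and always for Col1a1, Col1a2, Col3a1, Postn, Pdgfra, Tcf21 and Ddr2. Those of Col15a1, Lum, Fbn1, Fn1 and Loxl2 were added after their values were seen. Up to 3 genes of each other list, those with the smallest p in the double knockdown, could be named. All members and lists were chosen with earlier results of these data known. Alternatives were DESeq2 1.42.0, other scalings and filters, fitting only the groups compared, a block for replicate number, limma on TPM, and leaving out each library; the joint counts and list counts under them were added after seeing the data.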

Additional observations from a re-analysis of the deposited data

Results flagged for a closer look

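The 2 siRNAs together gave a change that differed from the sum of the single changes for 11 of the 34 genes, by the interaction term of the edgeR fit, and each is listed because the effect of 1 siRNA then differs with and without the other. The difference, in log2 units, was -0.69 for Vwa1, -0.46 for Col8a1, -0.42 for Thbs1, -0.38 for Lamc1, -0.37 for Fbn1, -0.34 for Ddr2 and -0.31 for Tnc. It was 0.40 for Ogn, 0.38 for Thbs2, 0.27 for Pdgfra and 0.26 for Postn. The calls on Fbn1 and Thbs1 were lost with no filter on low counts (adjusted p = 0.0691 and 0.0515). That on Fbn1 was also lost with limma on TPM (0.0517) and on leaving out some single libraries (0.0501 to 0.0765). Groups of 3 libraries are too small for a check of single outlying libraries.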

How the results depend on the processing

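Of 235 called results of single genes, 3636 recomputed values kept their direction in all cases, and 163 of those that left out a library and 85 others no longer passed. Leaving out single libraries moved the members' counts as follows, lower against scramble first: 22 to 24 (double knockdown), 15 to 20 (Btg1 knockdown) and 8 to 10 (Btg2 knockdown); higher, 1 to 3, 2 to 3 and 7 to 9. Double against Btg2 knockdown gave 19 to 24 lower and 1 to 4 higher, double against Btg1 knockdown 3 to 11 lower and 2 to 4 higher, and the departure from additivity 6 to 12 below and 4 to 5 above. With only the groups compared, 2 were higher in double against Btg2 knockdown (4 in the whole fit) and 3 lower in double against Btg1 knockdown (5 in the whole fit). Under library size alone the Btg2 knockdown median was -0.0039; the members' calls were 5 higher and 22 lower in double against Btg2 knockdown and 5 above and 7 below additivity. The share of all called genes that were higher was then 58.2% and 49.7%, against 47.3% and 33.1% with TMM. Settings other than a left-out library ended calls against scramble for Lox (double knockdown), Fbn1, Ogn, Pdgfra and Tnc (Btg1 knockdown) and Dcn, Fbln1, Loxl1 and Thbs1 (Btg2 knockdown), at adjusted p of 0.0503 to 0.104. The causes were not tested.

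No shared pattern of same-numbered libraries was seen: their deviations correlated at -0.092 to 0.060, with 0 of 18 pairs over 0.1. These values cannot show whether same-numbered libraries came from the same preparation. With the replicate number as a block the members' calls were 23 lower and 2 higher in the double knockdown, 18 and 3 in the Btg1 knockdown and 11 and 9 in the Btg2 knockdown. Lowest-count genes set the precision limit: 1 count was worth up to 0.0422 CPM, so markers below 0.5 CPM rest on few counts.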
